A study of Mus musculus with 21 samples.

Results

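The 32 cardiomyocyte sarcomere and calcium-handling genes described here were taken by symbol from a table of 20872 genes measured in mouse aortic valves, and all 32 were found in it once. They encode 7 proteins of the thick filament, 4 of the thin filament, 12 of the Z-disc, the titin filament and the M-band, 6 of calcium release and uptake, and 3 of energy and oxygen supply. Within the thick filament, the light chain genes Myl2 and Myl3 are kept apart as ventricular and Myl4 and Myl7 as atrial-type.

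The 21 libraries are bulk RNA-seq of aortic valves that were lysed directly. All mice carried a generation 2 deletion of both copies of Terc, the RNA component of telomerase, so no group has telomerase. The 4 WT libraries came from N1+/+ mice with healthy valves, and the other 17 from N1+/- mice, called N1het, whose valves were healthy (6 with solvent, 5 with XCT790) or stenotic (3 with solvent, 3 with XCT790). Solvent, which WT also received, or XCT790, known as an inverse agonist of estrogen-related receptor alpha, was injected into the abdomen daily for 4 weeks from 4 weeks of age, XCT790 at 5 mg per kg per day. The labels do not say whether each library is 1 animal, and the samples are whole valves rather than sorted cells.

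A sarcomere is the contractile unit of striated muscle, in which myosin thick filaments pull on actin thin filaments that are anchored in the Z-disc. Each beat starts when calcium leaves the sarcoplasmic reticulum and binds troponin, and ends when a pump returns the calcium to the store. Heart muscle of the atria and of the ventricles use different myosin light chains. Valve leaflets are made mainly of interstitial cells, matrix and a covering of endothelium, and are attached at a root that borders heart muscle and the wall of the aorta.

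Levels are given in FPKM, the number of fragments scaled to the length of the gene model and to a total for the library. Differences are on the scale of log2(FPKM + 1). Libraries held 8.42 to 27.3 M (mega) reads by the totals that the values imply, and depth below means this total. Reads of the listed genes made up nearly all of it, so the number of reads sequenced is not known. In 6 of the 21, a second label field, the agent, contradicts the title: N1het healthy XCT790 1, 2 and 3 are given solvent there, and N1het stenosis 1, 2 and 3 are given XCT790. Groups below follow the titles. By the agent field no stenotic library had solvent, so comparisons that use stenotic valves with solvent rest on the titles alone. Dcn, a matrix gene of valve interstitial cells and fibroblasts, was at 2580.4 to 5373 FPKM, so it was measured in all 21 libraries. This gene alone does not tell valve interstitial cells from other fibroblasts. The 9 skeletal muscle markers in the table summed to 0.00309 to 9.07 FPKM, and none reached the mean of 1 FPKM needed for testing.

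Not every member was detected in every library: 7 of the 32 were listed at 0 in WT 1 and 6 in N1het stenosis 1. The levels of the 32 genes differed widely between libraries. Their mean log2(FPKM + 1) ran from 0.88 in WT 2 to 6.08 in N1het stenosis 2. In WT it was 1.28, 0.88, 2.29 and 4.79, and in N1het healthy it ran from 1.60 over a median of 3.37 to 6.01. With XCT790 it was 1.19, 2.48, 2.10, 2.71 and 4.71 in healthy valves and 4.64, 2.23 and 1.58 in stenotic ones. Stenotic valves with solvent had 0.91, 6.08 and 2.45. Every group held both low and high libraries, so the groups overlapped widely. In order of level, the widest step was 1.79, from 2.71 to 4.49, and 7 libraries lay above it: N1het stenosis 2, N1het stenosis XCT790 1, N1het healthy 2, 5 and 6, N1het healthy XCT790 5 and WT 4. In bulk valves, a smaller number of muscle cells and less RNA per muscle cell cannot be told apart.

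**Figure D1:**
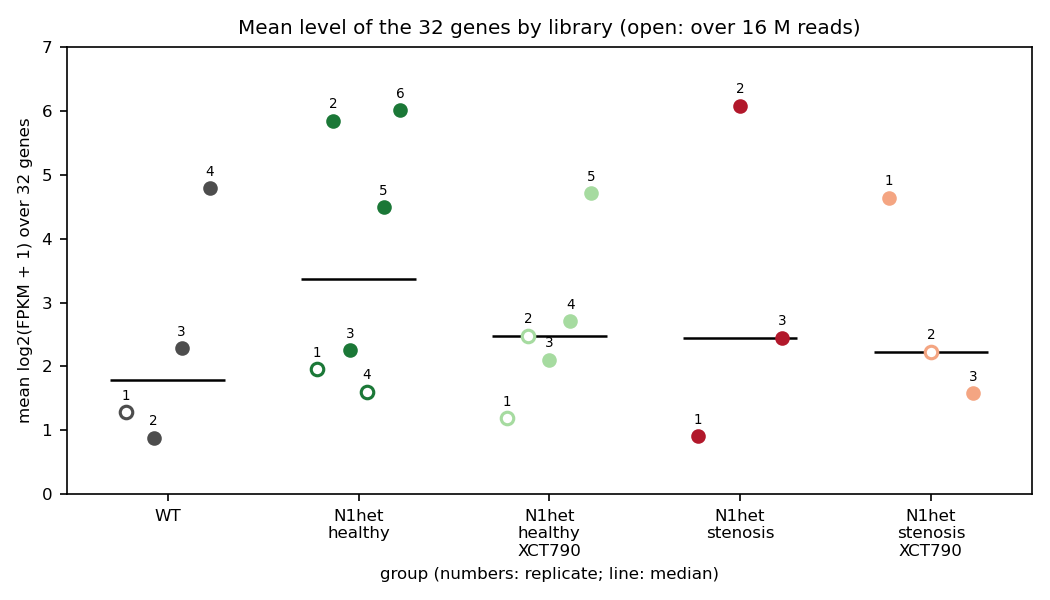
Mean log2(FPKM + 1) over the 32 genes (vertical axis) for each library, by group (horizontal axis), with the replicate number beside each point and a line at the group's median. Open points are the 6 libraries with more than 16 M reads. Each group holds at least 1 library above 4.49 and at least 1 below 2.71.

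Reads of the 32 genes made up 0.54% to 2.52% of the library in those 7 and 0.0567% to 0.195% in the other 14. None of the 7 was among the 6 libraries with more than 16 M reads; their depth was 8.42 to 15.6 M reads, and that of the other 14 was 8.93 to 27.3 M reads. The part of depth in these levels was not tested beyond the fits given below, which add depth as a term or keep the 15 shallower libraries. The share of reads on 7 mitochondrial genes was 0.851% to 8.40% in the 7 and 0.0581% to 5.64% in the other 14, and its part was not tested. Of the 32 genes, 2 (WT 2) to 28 (N1het healthy 6) reached 10 FPKM in a library.

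**Figure D2:**
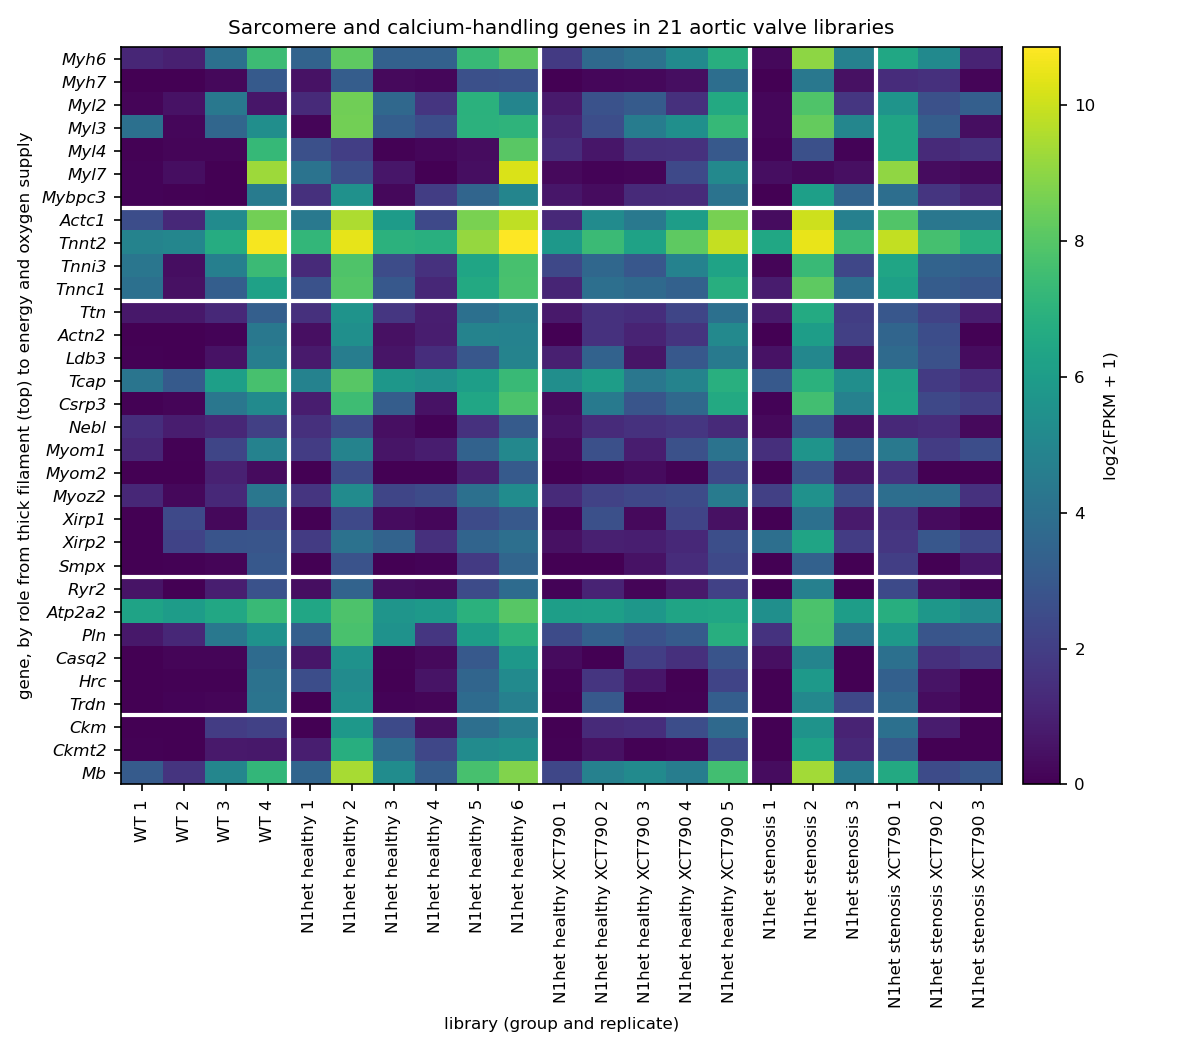
Level of each of the 32 genes (rows, by role) in each of the 21 libraries (columns, by group), as log2(FPKM + 1) on the colour scale. The bright columns are the same 7 libraries for most genes, while Tnnt2, Tcap and Atp2a2 are visible in every column.

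Among the thick filament genes, Myh6, the myosin heavy chain of the adult mouse heart, was at 1.28, 0.913, 15.3 and 175 FPKM in WT and at 9.36 to 289.7 (median 84.6) in N1het healthy. It was at 2.59, 11.9, 16.2, 36.2 and 111 FPKM in N1het healthy XCT790. In N1het stenosis it was at 0.176, 520.2 and 26.4, and in N1het stenosis XCT790 at 87.7, 34.5 and 1.13. The spread inside a group was thus as wide as the spread over all libraries, with the lowest and the highest value both in N1het stenosis. Mybpc3, which encodes the myosin-binding protein of the thick filament, was listed at 0 in WT 3 and reached 68.5 FPKM in N1het stenosis 2. Myh7, the slow heavy chain that dominates before birth in the mouse heart, stayed at 19.2 FPKM or below.

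Myh7 was a minor part of the reads of both heavy chains. Its share was 5.35% in WT 4 (95% exact Clopper-Pearson interval 4.92 to 5.81), 3.65%, 4.21% and 2.47% in N1het healthy 2, 5 and 6, 4.63% in N1het stenosis 2 and 2.39% in N1het stenosis XCT790 1. It was 14.2% in N1het healthy XCT790 5 (13.5 to 14.9), outside the interval of each of those libraries. Among the libraries with fewer reads of these genes, it was 6.48% in N1het stenosis XCT790 2 (5.76 to 7.27) and 11.25% in N1het stenosis XCT790 3, from 9 reads of Myh7 and 71 of Myh6, with an interval of 5.28 to 20.3 that holds 14.2%. In the 11 others with a read of Myh7 it was 0.723% to 5.56%. In N1het stenosis 1, 17 reads of Myh6 and 0 of Myh7 were counted, which allows a share of up to 19.5%. The intervals cover counting error only, since amplified reads are not independent molecules. The coding sequences of Myh6 and Myh7 are identical at 91.8% of 5802 aligned bases, with a longest identical run of 245 bases in the GENCODE vM21 transcripts, so reads could be assigned to the wrong gene and the shares are uncertain to that degree.

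The light chain genes did not follow 1 pattern. Myl2, the ventricular regulatory light chain, was at 359 FPKM in N1het healthy 2, 231 in N1het stenosis 2, 121 in N1het healthy 5 and 97.2 in N1het healthy XCT790 5, but at only 0.566 in WT 4. Myl7, its atrial counterpart, was at 1209 FPKM in N1het healthy 6, 608 in WT 4 and 534 in N1het stenosis XCT790 1, and at 0.191 in N1het stenosis 2. Myl3, the ventricular essential light chain, was at 374, 316 and 132 FPKM in N1het healthy 2, N1het stenosis 2 and N1het healthy 6, and Myl4, its atrial counterpart, at 3.06, 5.33 and 272. Libraries with similar mean levels of the 32 genes therefore differed in which light chains they held.

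Taking Myl4 and Myl7 together over Myl2 and Myl3 together, each sum raised by 1 FPKM, the log2 ratio was 4.20 in WT 4, 3.18 in N1het healthy 6 and 2.27 in N1het stenosis XCT790 1. It was -7.28 in N1het healthy 5, -6.34 in N1het healthy 2, -6.39 in N1het stenosis 2 and -2.60 in N1het healthy XCT790 5. The 7 libraries with the highest levels thus split into 3 with more atrial-type and 4 with more ventricular light chain RNA. Of all 21 libraries, 5 had the higher atrial-type sum. These were the 3 just named, N1het healthy 1, at 21.8 against 1.54 FPKM, and N1het stenosis 1, at 0.408 against 0.292 FPKM, which rests on 5 and 3 reads of Myl4 and Myl7 and 4 and 3 of Myl2 and Myl3. Among WT valves the ratio ran from -4.83 to 4.20. It ran from -7.28 over a median of -3.24 to 3.18 in healthy N1het valves with solvent and from -3.38 to -0.07 in those with XCT790. In stenotic valves it ran from -6.39 to 0.12 with solvent and from -2.42 to 2.27 with XCT790. Each group overlapped every other. Myl7 gave the larger part of the atrial-type sum in all 5 libraries where that sum was the higher one. It did so in some others too, such as N1het healthy XCT790 5, at 33.4 FPKM against 7.15 for Myl4.

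**Figure D3:**
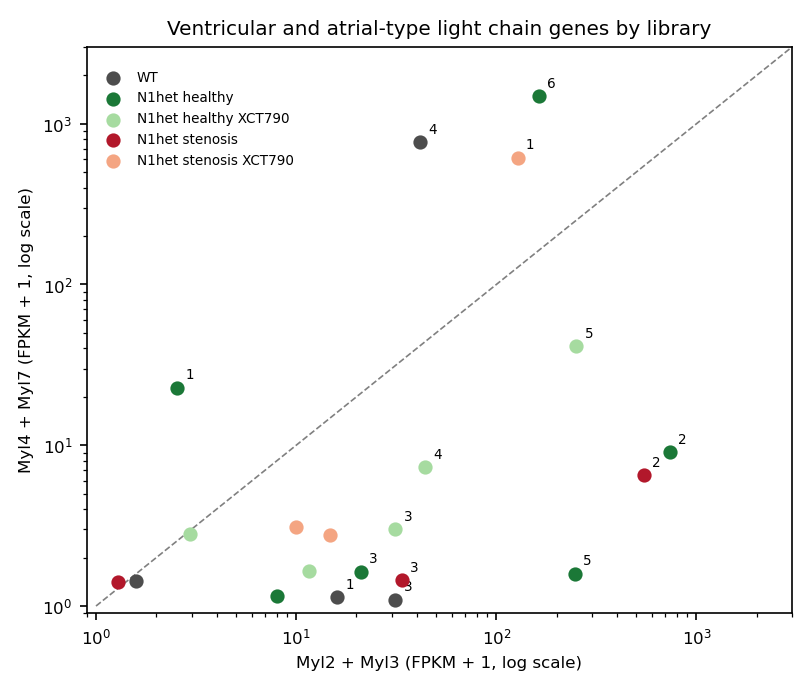
FPKM + 1 of the atrial-type light chain genes Myl4 and Myl7 (vertical, log scale) against that of the ventricular genes Myl2 and Myl3 (horizontal, log scale), 1 point for each library, coloured by group; the dashed line marks equal sums and numbers are replicates of libraries above 15 FPKM on either axis. WT 4, N1het healthy 6 and N1het stenosis XCT790 1 lie far above the line, and N1het healthy 2 and 5 and N1het stenosis 2 far below it.

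Other atrial genes differed between these libraries too. Sln, an atrial regulator of the calcium pump, was at 145 FPKM in N1het healthy 6, 76.1 in WT 4, 56.4 in N1het stenosis XCT790 1, 33.2 in N1het healthy XCT790 5 and 8.32 in N1het stenosis 2. It was under 1 FPKM in the other 16 libraries. Nppa, the atrial natriuretic peptide gene, was at 169 FPKM in WT 4, 81.0 in N1het stenosis 2, 30.2 in N1het healthy 6 and 16.2 in N1het stenosis XCT790 1. So N1het stenosis 2, with almost no Myl7, held Nppa above the level of a library rich in Myl7. Kcnj5, a subunit of an atrial potassium channel, reached 21.5 FPKM in N1het healthy 6 and was also at 15.4 in WT 2. That library had the lowest mean level of the sarcomere and calcium-handling genes. Tbx5 (0.207 to 23.5 FPKM), Nr2f2 (0.697 to 15.7) and Gja5 (0 to 7.37) are not restricted to muscle cells and did not separate the libraries in this way. The 9 listed atrial markers summed to 285 FPKM in WT 4, 228 in N1het healthy 6, 111 in N1het stenosis XCT790 1 and 108 in N1het stenosis 2, and to at most 47.4 elsewhere.

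Of the markers of ventricle, Hey2 was at 5.47 to 80.1 FPKM and Lmod3 at 0 to 9.08. The highest Hey2 level was in N1het healthy 3, which was not among the libraries richest in the sarcomere and calcium-handling genes. Over all libraries, the correlation with the mean level of those genes was -0.15 for Hey2 and 0.75 for Lmod3. Hey2 therefore did not follow those genes. Nppb, the gene of a natriuretic peptide that stretched heart muscle releases, is taken up with the stenotic groups below. Of the conduction markers, Tbx3 was at 1.51 to 17.3 FPKM, Cacna1g at 0.598 to 14.2 and Cacna1d at 0.267 to 2.74.

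Of the thin filament genes, Actc1, the cardiac actin gene, was at 5.00, 1.40, 36.4 and 378 FPKM in WT and at 4.31 to 908 (median 236) in N1het healthy. It was at 1.39, 37.1, 20.1, 64.5 and 399.8 in N1het healthy XCT790, 0.286, 1034 and 25.7 in N1het stenosis, and 238, 18.7 and 20.4 in N1het stenosis XCT790. Tnnt2, the cardiac troponin that holds the complex on tropomyosin, had the highest median of the 32 genes, 171 FPKM, and was at 27.7 or more in every library. In N1het stenosis 1, where Actc1 was at 0.286 and Myh6 at 0.176 FPKM, Tnnt2 was at 87.3. Tnni3, the inhibitory subunit, and Tnnc1, the calcium-binding subunit, were at 0.108 and 0.759 FPKM in that library and reached 232 and 287 in others. Tnnt2 was therefore measured where its partners in the troponin complex were close to 0.

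Among the Z-disc, titin and M-band genes, Ttn, whose protein spans the sarcomere from Z-disc to M-band, ranged from 0.611 FPKM in WT 2 to 100.1 in N1het stenosis 2. Actn2, the Z-disc actinin, reached 64.6 FPKM, Csrp3, a muscle LIM protein, 218, Ldb3 31.5, Myoz2 43.7 and Myom1, an M-band protein, 48.8, each with its lowest value under 0.2. Nebl (0.0891 to 7.61 FPKM), Myom2 (0 to 7.39), Smpx (0 to 10.8) and Xirp1 (0 to 15.1) were low in all libraries, and Smpx was listed at 0 in 8. Tcap, the titin cap protein of the Z-disc, was at 1.62 FPKM or more in all 21 libraries and at 69.5 in WT 3, above the 67.5 of N1het healthy 5. Xirp2, an actin-binding protein of cell junctions in the heart, was at 14.5 FPKM in N1het stenosis 1, a library with almost no Myh6 or Actc1, and at 79.3 in N1het stenosis 2.

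Of the calcium-handling genes, Atp2a2, the pump that returns calcium to the store, was at 35.9 to 259 FPKM and so was the most even of the 32 genes. Pln, which encodes the inhibitor of that pump, ranged from 0.602 in WT 1 to 212 FPKM in N1het healthy 2. Ryr2, the release channel of the store, was at 25.4 FPKM or below, and Casq2, Hrc and Trdn, which bind or organise calcium at that channel, reached 54.7, 58.6 and 41.2 FPKM and were listed at 0 in 2, 5 and 6 libraries. Of the supply genes, Mb, myoglobin, reached 700.2 FPKM in N1het healthy 2, Ckm, the muscle creatine kinase, 55.0, and Ckmt2, the mitochondrial creatine kinase, 113, all in that library. In WT 4, Mb was at 145 FPKM but Ckm at 3.33 and Ckmt2 at 0.646.

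Set against Actc1 in the same library, the 7 libraries with the highest levels showed which genes kept a steady proportion. Myoz2 was at 3.70% to 6.00% of the FPKM of Actc1, Tnnc1 at 19.5% to 33.1% and Myh6 at 27.9% to 50.3%, ranges of 1.62-fold, 1.70-fold and 1.80-fold. The widest ranges were those of Myl7 (0.0185% to 225%), Myl4 (0.0675% to 41.3%), Myl2 (0.150% to 48.7%), Ckmt2 (0.171% to 15.3%), Myom2 (0.0639% to 1.03%) and Xirp1 (0.105% to 1.46%). In WT 4, the proportions of Myl2, Myl3, Tnnc1, Ttn, Csrp3, Myom2, Pln, Ckm, Ckmt2 and Mb were each the lowest of the 7. Ratios between genes here are of levels per length.

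Most of the genes varied together across libraries. The correlation of a gene's log2(FPKM + 1) with the mean of the other members over the 21 libraries was over 0.9 for 21 of the 32, with a median of 0.91, from 0.57 for Myl7 to 0.96 for Ryr2. Because the libraries fall on both sides of a step, that value partly restates the step: within the 14 libraries below it the median was 0.56, and within the 7 above it 0.82. Inside the 7, Myl7 (-0.30) and Myl4 (-0.03) had no positive correlation with the mean of the other members. These correlations share libraries and depth and are a description. Of the 14966 genes tested, members included, 79 (0.528%) had a correlation over 0.8 with the mean of the members and the median gene was at 0.00. Of the 39 genes over 0.9, 21 were members, each correlated with a mean that includes it.

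The 10 genes outside the set with the highest correlation over the 21 libraries were Fabp3 (0.95), Rbm24 (0.95), Tpm1 (0.95), Smyd1 (0.93), Alpk2 (0.93), Cox6a2 (0.92), Des (0.92), Gbas (0.92), Ppp1r14c (0.92) and Mylk3 (0.92). Within the 14 lower libraries the same genes were at 0.71, 0.51, 0.63, 0.55, 0.37, 0.61, 0.67, 0.41, 0.57 and 0.79. Of 26 other sarcomere genes tested, 14 were over 0.8 and the median was 0.84; of 10 other energy genes 5 were, with a median of 0.82; and of 15 other calcium-handling genes 2 were, with a median of 0.41. Cryab, a small heat shock protein of the Z-disc (97.4 to 482 FPKM), Tpm1, a tropomyosin not restricted to striated muscle (24.2 to 263), and Hspb7, a heart chaperone (5.35 to 253), were the most abundant of the other sarcomere genes. Cox6a2 (0.0937 to 478), Fabp3 (0.854 to 478) and Cox8b (0 to 189) led the other energy genes. S100a1 (38.4 to 171), Atp2b1 (17.1 to 62.9) and Itpr1 (17.5 to 55.3) led the other calcium-handling genes and varied far less.

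Since most members varied together, the 250 bases before their transcription starts were searched on both strands for 4 motifs of muscle transcription factors. RefSeq's promoter table (build GRCm38.p6, not the mm9 of the deposited values) held 27 of the 32. A CArG box, bound by serum response factor, was found in 6 of the 27 (22.2%), against 1.62% of 27025 genes in the table, and a MEF2 motif in 5 (18.5%) against 3.42%. AGATAA, which Gata4 can bind, was found in 6 (22.2%) against 11.4%, and CATTCC, which Tead1 can bind, in 7 (25.9%) against 14.4%. No gene had both a CArG box and a MEF2 motif, and 11 had either. The CArG box genes were Actc1, Ldb3, Myl3, Myl7, Myom1 and Nebl, so they include both atrial-type and ventricular light chains, and the MEF2 genes Casq2, Mybpc3, Myoz2, Ttn and Xirp2. The windows of 4 of these genes are shown because they stand for a ventricular and an atrial light chain with the same motif, the cardiac actin gene, and a MEF2 example, with the motif in capitals and no overlap with the other motif; they run 5′ to 3′ on the gene's strand and end at the base before the start. They are Myl7 at chr11:5898783-5899032 (minus strand, motif starting 61 bases before the start), Myl3 at chr9:110763428-110763677 (plus strand, 85), Actc1 at chr2:114052876-114053125 (minus strand, 47) and Mybpc3 at chr2:91117894-91118143 (plus strand, 90).
Myl7: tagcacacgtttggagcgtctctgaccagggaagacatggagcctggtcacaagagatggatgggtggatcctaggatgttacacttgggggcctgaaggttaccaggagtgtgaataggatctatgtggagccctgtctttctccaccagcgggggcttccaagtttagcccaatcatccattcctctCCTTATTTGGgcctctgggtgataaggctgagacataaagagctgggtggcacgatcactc
Myl3: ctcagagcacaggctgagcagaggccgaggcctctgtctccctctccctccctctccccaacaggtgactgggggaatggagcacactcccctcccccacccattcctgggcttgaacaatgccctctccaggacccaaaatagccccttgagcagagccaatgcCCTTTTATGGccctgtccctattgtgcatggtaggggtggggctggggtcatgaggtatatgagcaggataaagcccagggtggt
Actc1: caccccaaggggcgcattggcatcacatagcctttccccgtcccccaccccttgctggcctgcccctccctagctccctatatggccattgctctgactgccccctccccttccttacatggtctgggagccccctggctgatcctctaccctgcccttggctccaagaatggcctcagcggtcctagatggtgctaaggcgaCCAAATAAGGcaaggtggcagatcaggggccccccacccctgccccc
Mybpc3: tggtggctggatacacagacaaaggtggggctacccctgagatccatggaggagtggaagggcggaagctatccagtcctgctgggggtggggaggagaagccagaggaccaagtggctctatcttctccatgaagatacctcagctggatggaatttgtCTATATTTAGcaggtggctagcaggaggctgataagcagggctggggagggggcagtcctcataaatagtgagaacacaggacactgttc
A match describes these letters only and says nothing of binding in these valves.

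Other cell types also differed between libraries, and their part in the levels of the 32 genes was not tested. The 8 smooth muscle markers, led by Acta2 (22.8 to 2216 FPKM), Tagln (34.4 to 575) and Myh11 (0.107 to 398), summed to 3519 FPKM in WT 4, 2056 in N1het stenosis XCT790 1 and 1734 in N1het healthy XCT790 2, and to 82.6 to 843 in the others. The sum ran from 177 to 3519 in WT. In healthy N1het valves it ran from 82.6 to 843 with solvent and from 198 to 1734 with XCT790, and in stenotic ones from 135 to 779.5 and from 127 to 2056. Des, one of the 8, is also in the list of other sarcomere genes. So the smooth muscle markers were high in 2 of the 7 libraries rich in the 32 genes and in 1 that was not. The 7 listed adipocyte markers, led by Fabp4 (0 to 292), Lpl (15.1 to 126) and Cidea (0 to 17.6), summed to 375 in N1het stenosis 2, 349.5 in N1het stenosis XCT790 1, 289.7 in WT 3 and 253 in N1het healthy 6, and to 16.5 to 149 elsewhere. The 6 red blood cell markers, led by Hbb-b2 (0.672 to 776), Hbb-b1 (0.209 to 192) and Hba-a1 (0.0549 to 169), summed to 2.56 to 1244 FPKM, and the 8 endothelial markers, led by Pecam1 (51.4 to 302), Cdh5 (15.9 to 124) and Tek (12.1 to 94.6), to 123 to 635. With limma, none of the tested genes of the adipocyte (3), red blood cell (5), smooth muscle (8), endothelial (8), atrial (6) and conduction (4) lists passed in any of 8 comparisons; summed over the comparisons they had 0, 0, 0, 1, 3 and 6 results with an unadjusted p under 0.05, and voom, limma's method for read counts, called none either.

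Differences between groups were tested with limma on all 14966 genes with a mean of 1 FPKM or more, a filter that all 32 members passed, and p was adjusted by Benjamini and Hochberg over all of them. No member was called at an adjusted p under 0.05 in any of 8 comparisons or over the 5 groups together, by limma or by voom. The members spread widely inside the groups. The median member had a within-group SD of 2.04 in log2, from 0.81 for Atp2a2 to 3.60 for Myl7, against 0.67 for the median gene tested, and 29 of the 32 were among the 10% of genes with the widest spread. The group explained a median of 9.30% of a member's variance, against 20.2% of that of all genes. These shares are not adjusted for the number of groups. They lie above 0 even where groups do not differ, so 20.2% is no measure of a group effect. Ckmt2 (46.9%), Xirp2 (43.0%) and Tcap (30.0%) had the highest shares among the members. The F test over the 5 groups called 1 of all genes (0.00668%) and 0 members, with unadjusted p of 0.0104 for Ckmt2 and 0.0203 for Xirp2; voom gave 0 members under 0.05. The comparisons below that use the same group share its libraries and are not independent of each other. In N1het healthy minus WT, 7.42% of all genes tested and 3.125% of members had an unadjusted p under 0.05 with limma. The shares were 10.4% and 3.125% in N1het stenosis minus WT, and 11.5% and 3.125% in all stenosis minus all healthy N1het. They were 2.65% and 6.25% in N1het healthy XCT790 minus N1het healthy. In each remaining comparison they were 2.98% to 9.60% and 0%.

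**Figure D4:**
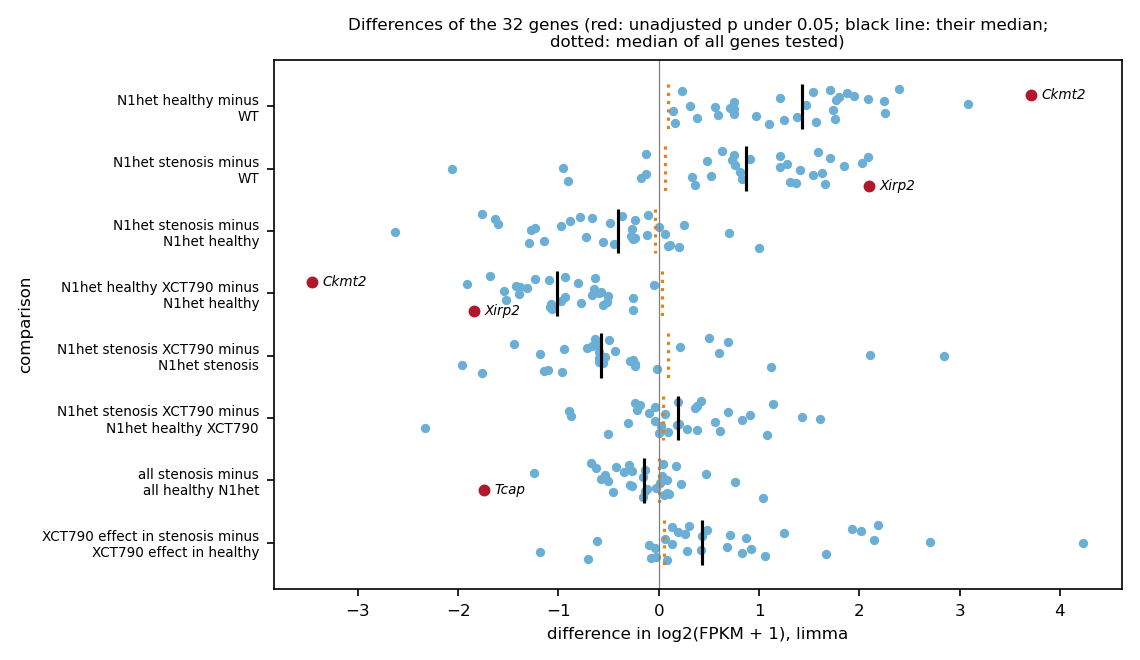
Difference of each of the 32 genes in 8 comparisons (rows), in log2(FPKM + 1) from limma (horizontal axis); red points have an unadjusted p under 0.05, none an adjusted one, the black line is the median of the 32 genes and the dotted line that of all genes tested. All 32 points lie above 0 for N1het healthy minus WT and below 0 for N1het healthy XCT790 minus N1het healthy.

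Between healthy N1het valves and WT, which by title differ in N1, all 32 members were higher in N1het healthy and none passed (background 0% of genes called). The median difference was 1.43, against 0.09 over all genes. Ckmt2 was at 0.0316, 0, 0.685 and 0.646 FPKM across WT, while the 6 N1het healthy libraries ran from 0.874 to 113 (median 24.9), and it was the 1 member whose groups did not overlap, as 1.16% of genes did not. Its difference was 3.71 ± 1.09 (SE, limma, unadjusted p = 0.00264, adjusted p = 0.43, 0.26 to 0.77 over 21 alternatives, all in the same direction). Myoz2 (1.74 ± 0.90) and Myl2 (3.08 ± 1.61) had the next smallest p and missed 0.05 without adjustment, and voom had 2 members under that limit and 0 called. The median of the 32 was 2.29 without WT 4 and 0.84 without N1het healthy 2. It was 2.02 within the 15 shallower libraries, 1.63 with depth as a term and 0.86 with groups taken from the agent field.

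Between stenotic N1het valves and WT, both with solvent by title, 26 of the 32 members were higher in stenosis and 0 passed (background 0.0334%). The median difference was 0.87, against 0.06 over all genes. Xirp2 was at 14.5, 79.3 and 2.81 FPKM in N1het stenosis and at 0.0118, 3.56, 6.13 and 6.26 in WT, so the groups overlapped, as they did for all members (8.61% of all genes did not overlap). Its difference was 2.09 ± 0.86 (SE, limma, unadjusted p = 0.0237, adjusted p = 0.40, 0.35 to 0.76 over 17 alternatives, all in the same direction), and Xirp2 was the only member with an unadjusted p under 0.05 in limma and in voom. Ckmt2 (2.08 ± 1.29) and Myoz2 (1.62 ± 1.06) followed in that direction, and Myl7 (-2.06 ± 2.64), Myl4 (-0.96 ± 1.84) and Tnni3 (-0.91 ± 1.98) in the other. The median was -0.73 without N1het stenosis 2, where 25 of the 32 were lower in stenosis, 2.22 without N1het stenosis 1 and 1.79 without WT 4. The median thus turned when that 1 library was left out. It was 0.60 within the 15 shallower libraries and 0.54 with depth as a term.

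Between stenotic and healthy N1het valves with solvent, 24 of the 32 members were lower in stenosis and 0 passed (background 0.0334%). The median was -0.41, against -0.04 over all genes, and no member had an unadjusted p under 0.05 with limma or voom. The groups overlapped for all 32, while 5.46% of all genes did not overlap. Ckmt2 (-1.63 ± 1.19), Myl7 (-2.63 ± 2.44) and Tcap (-1.15 ± 1.13) were the lowest in p on the lower side, and Xirp2 (1.00 ± 0.80), Myom1 (0.70 ± 1.16) and Xirp1 (0.20 ± 0.90) on the higher side. The median turned to 0.56 without N1het stenosis 1 and to 0.01 without N1het healthy 6, and was -1.95 without N1het stenosis 2. It was -1.38 within the 15 shallower libraries and -1.13 with depth as a term. Nppb, a gene of the ventricular marker list that is known to respond to load, was at 11.2, 38.7 and 30.5 FPKM in N1het stenosis and at 0 to 2.20 in N1het healthy, and rose (4.11, limma adjusted p = 0.0384; voom did not call it). Against WT, where it was listed at 0 in all 4 libraries, it was called too (limma adjusted p = 0.0362). Its level did not follow the 32 genes: it was at 11.2 FPKM in N1het stenosis 1, with almost no Myh6, and listed at 0 in WT 4 and N1het stenosis XCT790 1.

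XCT790 was given to healthy and to stenotic N1het mice. In healthy valves all 32 members were lower with XCT790 and 0 passed (background 0%). The median was -1.02, against 0.03 over all genes. Ckmt2 was at 0.0548, 0.394, 0.0498, 0.0940 and 4.36 FPKM with XCT790 and at 0.874 to 113 with solvent, a difference of -3.46 ± 1.02 (SE, limma, unadjusted p = 0.00281, adjusted p = 1.00, 0.89 to 1.00 over 22 alternatives). Xirp2 was at 0.399, 0.937, 0.862, 1.36 and 5.04 FPKM with XCT790 and at 1.86 to 16.3 (median 10.2) with solvent, a difference of -1.84 ± 0.68 (unadjusted p = 0.0134, adjusted p = 1.00 with limma). The groups overlapped for both genes and for the other members (0.267% of all genes did not overlap), and voom had 1 member under 0.05 unadjusted. Hrc (-1.91 ± 1.15) was next. Leaving out N1het healthy XCT790 5 took the median to -1.57 and leaving out N1het healthy 2 to -0.54. It was -1.40 within the 15 shallower libraries and -0.91 with depth as a term. When the 3 libraries whose agent field says solvent were moved to the solvent group, the median turned to 0.54, with 26 of the 32 higher with XCT790, and Ckmt2 was at -1.52.

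**Figure D5:**
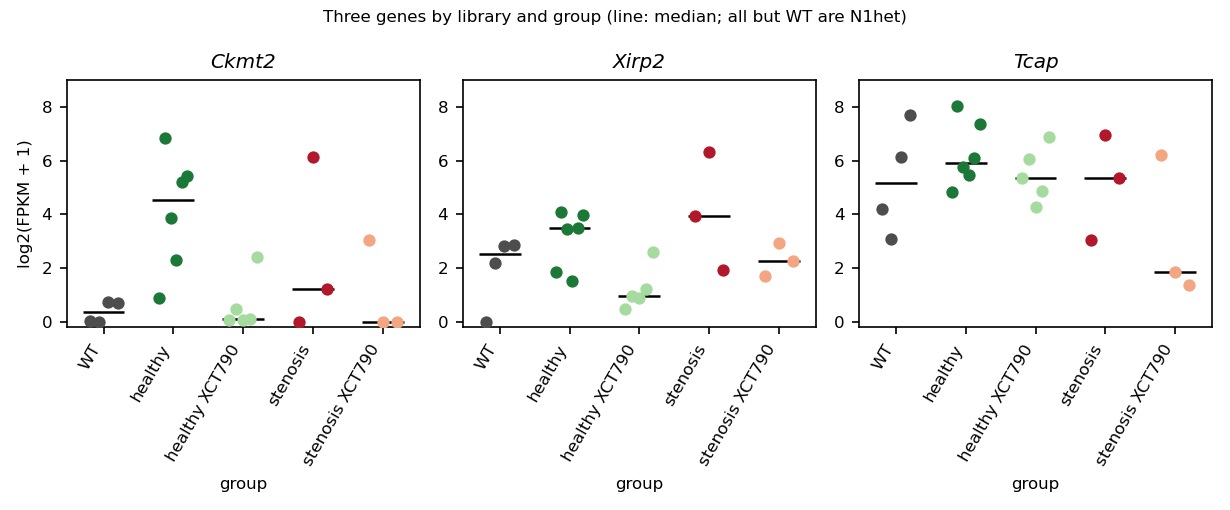
Log2(FPKM + 1) (vertical axis) of Ckmt2, Xirp2 and Tcap, the 3 members with an unadjusted p under 0.05 in a comparison, in each library by group (horizontal axis), with a line at the median. In those comparisons, 2.65% to 11.5% of all genes tested had such a p with limma. Ckmt2 is above all WT libraries in every N1het healthy library and near 0 in 4 of 5 N1het healthy XCT790 libraries.

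In stenotic valves, 25 of the 32 members were lower with XCT790 and 0 passed (background 0%). The median was -0.57, against 0.09 over all genes, with no unadjusted p under 0.05 by limma or voom. The groups overlapped for all 32, against 8.75% of all genes that did not. Xirp2 (-1.76 ± 0.92), Tcap (-1.96 ± 1.30) and Ckmt2 (-1.44 ± 1.38) came first on the lower side, and Myl4 (2.11 ± 1.96), Myl7 (2.84 ± 2.82) and Tnni3 (1.12 ± 2.12) on the higher side, where N1het stenosis XCT790 1 was the library rich in atrial-type light chains. The median was 1.02 without N1het stenosis 2, 0.02 without N1het stenosis XCT790 3, -1.69 without N1het stenosis 1 and -1.27 without N1het stenosis XCT790 1. It was 0.89 with voom, -0.29 within the 15 shallower libraries and 0.04 with depth as a term. By the agent field no stenotic library had solvent, and then neither this comparison nor any other that uses stenotic valves with solvent can be made.

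The effect of XCT790 in stenosis minus that in healthy valves, the interaction, had a member median of 0.43 (0.05 over all genes), with 25 of the 32 above 0 and 0 called (background 0%; 0 members at an unadjusted p under 0.05 with limma and with voom). Myl7 (4.24 ± 3.51), Ckmt2 (2.01 ± 1.71) and Myl4 (2.71 ± 2.44) were highest and Tcap (-1.19 ± 1.62), Xirp1 (-0.71 ± 1.29) and Myl3 (-0.61 ± 2.90) lowest in p on their sides. The median turned to -0.53 without N1het stenosis 1, -0.26 without N1het stenosis XCT790 1 and -0.03 without N1het healthy 2, and was 1.94 without N1het stenosis 2, 1.24 without N1het stenosis XCT790 3 and 1.02 without N1het healthy XCT790 5. It was 1.09 within the 15 shallower libraries and 0.91 with depth as a term. The 2 effects of XCT790 were therefore not shown to differ for these genes, and the intervals were wide: for Ckmt2 the 95% interval of the difference was -1.55 to 5.58.

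With XCT790 in both groups, 21 of the 32 members were higher in stenotic than in healthy valves and 0 passed (background 0%). The median was 0.19, against 0.04 over all genes, with 0 members under 0.05 unadjusted by limma and by voom, and the groups overlapped for all 32 (4.03% of all genes did not overlap). Tcap was at 73.4, 2.62 and 1.62 FPKM in N1het stenosis XCT790 and at 40.1, 65.5, 18.5, 28.2 and 116 in N1het healthy XCT790, a difference of -2.33 ± 1.17 (SE, limma, unadjusted p = 0.0605, adjusted p = 0.96). Xirp1 (-0.51 ± 0.93) and Nebl (-0.31 ± 0.66) followed on that side, and Xirp2 (1.08 ± 0.82), Casq2 (1.14 ± 1.36) and Myl4 (1.43 ± 1.76) on the other. Without N1het stenosis XCT790 1 the median was -0.63, without N1het healthy XCT790 1 it was -0.18 and without N1het healthy XCT790 3 it was -0.03; it was 0.81 without N1het stenosis XCT790 3, -0.10 within the 15 shallower libraries, 0.05 with depth as a term and -0.66 with groups from the agent field.

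Over all 6 stenotic and all 11 healthy N1het libraries, giving solvent and XCT790 equal weight, 20 of the 32 members were lower in stenosis and 0 passed, while 0.374% of all genes did. The median was -0.15, against 0.00 over all genes, and -0.80 without N1het stenosis 2. It turned to 0.45 without N1het stenosis 1, 0.15 without N1het stenosis XCT790 3, 0.13 without N1het healthy XCT790 5, 0.10 without N1het healthy 6, 0.09 without N1het stenosis 3, 0.04 without N1het healthy 2 and 0.00 without N1het stenosis XCT790 2. It was -0.68 within the 15 shallower libraries and -0.41 with depth as a term. Tcap was 1.74 ± 0.81 lower (difference -1.74, SE, limma, unadjusted p = 0.0459, adjusted p = 0.42, 0.14 to 0.79 over 27 alternatives, lower in stenosis in all 27), and voom had 0 members under 0.05 unadjusted. Mb (-1.25 ± 1.33) and Atp2a2 (-0.30 ± 0.37) followed, and Xirp2 (1.04 ± 0.57), Myom1 (0.76 ± 0.84) and Mybpc3 (0.47 ± 0.95) were on the other side. The interval for Atp2a2, the most evenly measured member, was -1.07 to 0.47.

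Markers of other cells moved in that comparison. Of 9 macrophage genes tested, Lyz2, lysozyme (378 to 4585 FPKM), rose in stenosis (1.61, limma adjusted p = 0.025), and C1qb (156 to 1021) and Ctss (39.8 to 830.1) were not among those called; all 9 were higher and the summed level was 1745 to 7648 FPKM in the stenotic and 887 to 3454 in the healthy N1het groups. Of 10 interstitial cell and fibroblast genes, Dcn, Mfap4 (118 to 928 FPKM), Vcan and Lum (472 to 1243) fell by 0.64, 1.54, 1.12 and 0.60 (limma adjusted p = 0.0142, 0.0171, 0.0491 and 0.0491), all 10 were lower, and the sum was 4204 to 5282 against 5477 to 9551 FPKM. Nppb rose (3.01, limma adjusted p = 0.0148). The part of these cell types in the levels of the 32 genes was not tested.

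Other genes of the contractile and calcium apparatus were taken from separate lists. None of 26 other sarcomere genes or of 10 other energy genes was called in any of the 8 comparisons, with 0 at an unadjusted p under 0.05 by limma and 2 for each list, summed over the comparisons, by voom, which called none. Of 15 other calcium-handling genes limma called none, with 10 results under 0.05 unadjusted summed over the comparisons, and voom called 1, Atp2b1, the calcium pump of the plasma membrane, in all stenosis against all healthy N1het. In N1het healthy minus WT, 20 of 26, 10 of 10 and 6 of 15 of these genes were higher, with medians of 0.61, 0.94 and -0.05, and in N1het healthy XCT790 minus N1het healthy 5 of 26, 0 of 10 and 7 of 15 were, with medians of -0.70, -0.68 and -0.05. In the authors' deposited table, which marks changed genes for 5 of the pairwise comparisons by a test not given in the sources used here, none of the 32 members was marked, against 26 to 281 of the 20872 genes.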

How the data were processed

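The 32 members and all gene lists were chosen with earlier results of these data known. The authors deposited 1 table of FPKM values for 20872 genes in 21 libraries with columns of 0 and 1 marks per comparison, here read as a score of the authors. The submitters' processing notes name HISAT2, FastQC, SAMtools, Picard and the mouse build mm9; versions, the counting tool and the authors' test: not given in the sources used here. RNA was isolated with RNeasy Micro columns and amplified with the Ovation V2 kit, per the labels' protocols. Low FPKM values were whole multiples of 1 read, so that 99.99% to 100% of the values above 0 came out as whole reads within 0.01; their sum was 99.97% to 99.99% of the library total that the steps imply.

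limma 3.58.1 (R 4.3.3, statmod 1.5.0) was fitted to log2(FPKM + 1) of 14966 genes with a mean of at least 1 FPKM, all 5 groups in 1 model without covariates, with Benjamini-Hochberg adjustment; 5906 genes were left out. A fold change on this scale understates that of low genes. The p-values measure only the spread between libraries, which may be technical, since nothing says that they came from separate animals. All members are named; in a comparison, values are given for up to 3 members with the smallest unadjusted p on each side. Of other lists, called genes and the 3 of highest mean are named, and all genes tested of the atrial, ventricular and conduction lists except 1 that is not reported here; outside the lists, the 10 genes most correlated with the members' mean. Alternatives were voom on recovered reads, which called 0 members, another pseudocount, filter and scaling, depth, the agent field, a replicate block and leaving out each library. The model had no replicate block. Deviations from the group means had a correlation over 0.1 in 3 of 34 same-numbered pairs of libraries from different groups. In pairs with different numbers, 11 of 139 did. Scripts were tested on simulated data. Descriptive values used Python 3.11.15, pandas 2.3.3, numpy 2.4.6, scipy 1.17.1, matplotlib 3.10.9 and Biopython 1.88.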

Additional observations from a re-analysis of the deposited data

Results flagged for a closer look

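In groups of 4 to 6 libraries, 18 of 102 checks of the members, of their mean level and of the light chain ratio found a library whose gap to its nearest neighbour filled an unusual part of the group's range; chance gives about 1 in 20 for a single check, but the members vary together and 15 of the 18 came from WT 4 and N1het healthy XCT790 5, so the count is no measure of an excess. Of these, 10 were WT 4, at a log2(FPKM + 1) of 3.09 for Myh7, 7.30 for Myl4, 9.25 for Myl7, 4.54 for Mybpc3, 4.33 for Actn2, 4.66 for Ldb3, 2.97 for Smpx, 3.79 for Casq2, 4.11 for Hrc and 4.18 for Trdn. These are genes of the thick filament, of the Z-disc and of calcium handling. No gene of the thin filament or of energy and oxygen supply was flagged in WT 4, but a flag also depends on the spread of the other libraries. Among WT, the thin filament genes were highest in WT 4 too: Actc1 at 378 FPKM against at most 36.4, Tnnt2 at 1673 against 106, Tnni3 at 168 against 24.7 and Tnnc1 at 73.8 against 15.1. For Myl2, WT 3 stood apart at 4.33. N1het healthy XCT790 5 stood apart at 3.91 for Myh7, 4.13 for Mybpc3, 2.36 for Myom2, 6.80 for Pln and 2.42 for Ckmt2. N1het healthy 6 did so for Myl4, at 8.09. The log2 ratio of atrial-type to ventricular light chains stood apart in N1het healthy XCT790 1, at -0.073, where the sums were 1.80 and 1.95 FPKM.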

How the results depend on the processing

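No member was called under any of the 16 to 31 alternatives run for each comparison or for the test over all groups. The 160 median member differences moved by less than the within-group SD of the mean level (1.92), although many of these medians turned sign. That SD exceeds the largest median of the main fit (1.43, N1het healthy minus WT), so staying under it is no sign of stability. The fit with the replicate number as a block gave medians of 0.56 for N1het healthy minus WT, 0.62 for N1het stenosis minus N1het healthy, -0.56 for XCT790 in healthy valves, -0.57 for XCT790 in stenotic valves and 0.72 for all stenosis minus all healthy N1het, so the second and the last turned. With the block, 23 of the 32 members were higher in N1het healthy than in WT and 9 lower. The labels do not say whether the numbers pair the libraries, and the block called 0 members. Leaving out single libraries gave medians of 0.84 to 2.29 for N1het healthy minus WT and -1.57 to -0.54 for XCT790 in healthy valves. Of 14 member differences followed through every alternative, 3 turned: Myl7 in stenosis minus WT (0.21 without WT 4, -2.88 without WT 3), Xirp2 in stenosis minus healthy (-0.13 without N1het stenosis 2, 2.07 without N1het stenosis 3) and Tcap in the interaction within the 15 shallower libraries (0.16); the cause was not tested. Other members turned too: in stenosis minus WT 26 were higher, but 7 without N1het stenosis 2, and in stenosis minus healthy 8 were, but 27 without N1het stenosis 1. With a pseudocount of 0.1 the mean level of the 32 genes was -0.56 in WT 1, -1.01 in WT 2 and -0.36 in N1het healthy XCT790 1. With Myl7 over Myl2 alone, the log2 ratio was 8.60 in WT 4 and 0.92 in N1het healthy XCT790 4.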

Other observations

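Acta1, the skeletal actin gene that heart muscle also makes before birth, was at 206 FPKM in N1het stenosis 2 and at 9.45 or below in the other 20 libraries. Ankrd1, a stress-responsive gene of heart muscle, was at 352 FPKM in the same library, 184 in N1het healthy XCT790 5 and 102 in N1het healthy 2. Both were in the list of other sarcomere genes, and they were singled out after their values were seen.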
